A study of Mus musculus with 4 samples.

Results

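The antioxidant and NRF2 target genes are a set of 35 genes listed by symbol. The rule uses no measured value, but the list was drawn up with earlier results of these data known. They comprise NRF2 (gene Nfe2l2) and its inhibitor KEAP1, the enzymes that make and recycle glutathione and thioredoxin, the suppliers of NADPH, the peroxidases and dismutases, and enzymes that conjugate and export reactive compounds. Of the 35, 34 had a row among the 21840 genes of the expression table. Gpx2 is not analysed here. RNA was sequenced from 4T1, a mouse mammary carcinoma line of epithelial cells with wild-type genotype, grown in serum-supplemented medium. The cells received PBS or recombinant IL-17A (rIL17), and each group had 2 libraries. No label gives the dose or the length of treatment. It is also unstated whether replicates are separate cultures, and the p-values thus cover the variation between libraries alone, which may be technical.

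NRF2 is a transcription factor that is held in the cytoplasm and marked for degradation by KEAP1 with the ubiquitin ligase scaffold CUL3. Oxidants and electrophiles modify KEAP1, and NRF2 then accumulates, pairs with small MAF proteins and binds antioxidant response elements near its target genes. Its best-known targets make glutathione, reduce thioredoxin and quinones, supply NADPH and break down haem. Because NRF2 is regulated chiefly as a protein, the mRNA of Nfe2l2 is not a measure of its activity. In tumor cells a high activity of this pathway is known to protect against oxidative stress and several drugs.

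Values are normalized counts, which are reads per gene divided by a scaling factor for each library. Read numbers are inferred: if the smallest step between values in a library is 1 read, the libraries held 17511450 to 17970104 reads assigned to genes. That step ran from 0.9811 (PBS replicate 1) to 1.0053 (rIL17 replicate 1), and 100.0% of values were within 0.001 of a whole multiple of it. Because it lies close to 1 in 3 of 4 libraries, a check of units did not accept the values as scaled reads. No count model was therefore used, although the multiples point to scaled counts. The 34 genes together took 0.513% and 0.548% of the counts with PBS and 0.516% and 0.517% with rIL17. Known IL-17 targets marked the treated libraries: Lcn2 had 8448 and 8498 normalized counts in PBS against 28833 and 28096 in rIL17. Of the 8 epithelial markers, 8 reached 10 normalized counts in at least 1 library, and their sum was 53749 and 57978 with PBS and 45758 and 47812 with rIL17. The leukocyte markers summed to 136 to 158 in the 4 libraries, with Cd68 holding most of it and Ptprc at 0 in both PBS libraries. Fibroblast markers summed to 2446 to 2973, nearly all of it Pdgfra, and endothelial markers to 8.83 to 12.1. The part of these cell type markers in the results was not tested. PBS replicate 2 stood apart along the GC content of transcripts. Among genes below 45% GC it lay 0.26 below PBS replicate 1 at the median on the log2 scale, and the median difference between the groups was 0.23, or 0.10 against PBS replicate 1 alone. Among genes of at least 55% GC the median difference between the groups was -0.06. The transcripts of the 34 genes held 42.1% (Gclm) to 60.2% GC (Gpx4), and 3 of them, Gclm, Prdx1 and Sod2, lay below 45%. For these 3 the median of PBS replicate 2 minus replicate 1 was -0.06.

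The 34 genes had no common direction under the deposited scaling: 17 had a higher and 17 a lower mean in rIL17. Their median log2 fold change was 0.005, beside 0.014 over the 20677 genes tested, 52.8% of which were higher. The even split depended on the scaling: 12 of 34 were higher with upper-quartile scaling, 13 with limma-voom and 23 with a correction for GC content. With the GC correction 62.7% of all genes were higher. No such share is given for upper-quartile scaling or limma-voom. Upper-quartile scaling rescales whole libraries, and took Nfe2l2 from 0.24 to 0.19 and Keap1 from -0.092 to -0.142. These counts are not read as a result about the members. Sod2 and Mgst1 stood highest above their PBS values, 1.33-fold and 1.56-fold, and Gsto1 and Mgst3 lowest, at 0.830 and 0.846 times the PBS mean. In limma with Benjamini-Hochberg adjustment over all genes tested, 0 of the 34 passed at an adjusted p below 0.05, as did 0% of all genes. With an unadjusted p below 0.05 there were 5 of 34 (Nfe2l2, Sod2 and Mgst1 higher, Gsr and Mgst3 lower), where 12.8% of all genes had one. The GC correction gave 11 of 34, 10 higher and 1 lower, where 17.7% of genes had one. Those 2210 genes also leaned upward, with 1499 higher and 711 lower. Both rIL17 libraries lay above both PBS libraries for 11 members and below them for 9. Over all genes tested these shares were 25.4% and 20.0%. In bulk RNA a change in the make-up of the culture and a change of RNA per cell cannot be told apart.

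Under a stricter filter, which asked for at least 10 normalized counts in each library of a group and a mean of at least 1 CPM, 12515 genes were tested and 34 of 34 members were kept. There 0 members passed, where 0.807% of genes did. Limma-voom, run on all 20677 genes, called 0 members and 0.00484% of genes. Of the 12515 genes under the stricter filter 49.3% were higher in rIL17, 25.8% lay wholly above and 25.4% wholly below PBS. A difference of at least 1.2-fold was seen for 3 of 34 members (Sod2, Mgst1 and Gsto1), beside 24.2% of the genes under this filter. The members and those genes were not matched for abundance: the lowest PBS mean of a member was 181 normalized counts (Hmox1). The median size of the log2 fold change, without its sign, was 0.10 for the members and 0.125 for those genes. The corresponding median difference between the PBS libraries was 0.069 for the members and 0.134 for those genes. Leaving out a library changed the calls: without PBS replicate 1, 7 members (Sod2, Mgst1, Nfe2l2, Gsto1, Mgst3, Gpx4 and Sod1) and 22.2% of genes passed. Without PBS replicate 2, 2 members (Sod2 and Mgst1) and 5.52% of genes passed. Without rIL17 replicate 1 or 2, 0 members and 0.00798% or 0.00800% of genes passed. These 4 fits assume that a lone library varies like the libraries of the other pair.

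**Figure D1:**
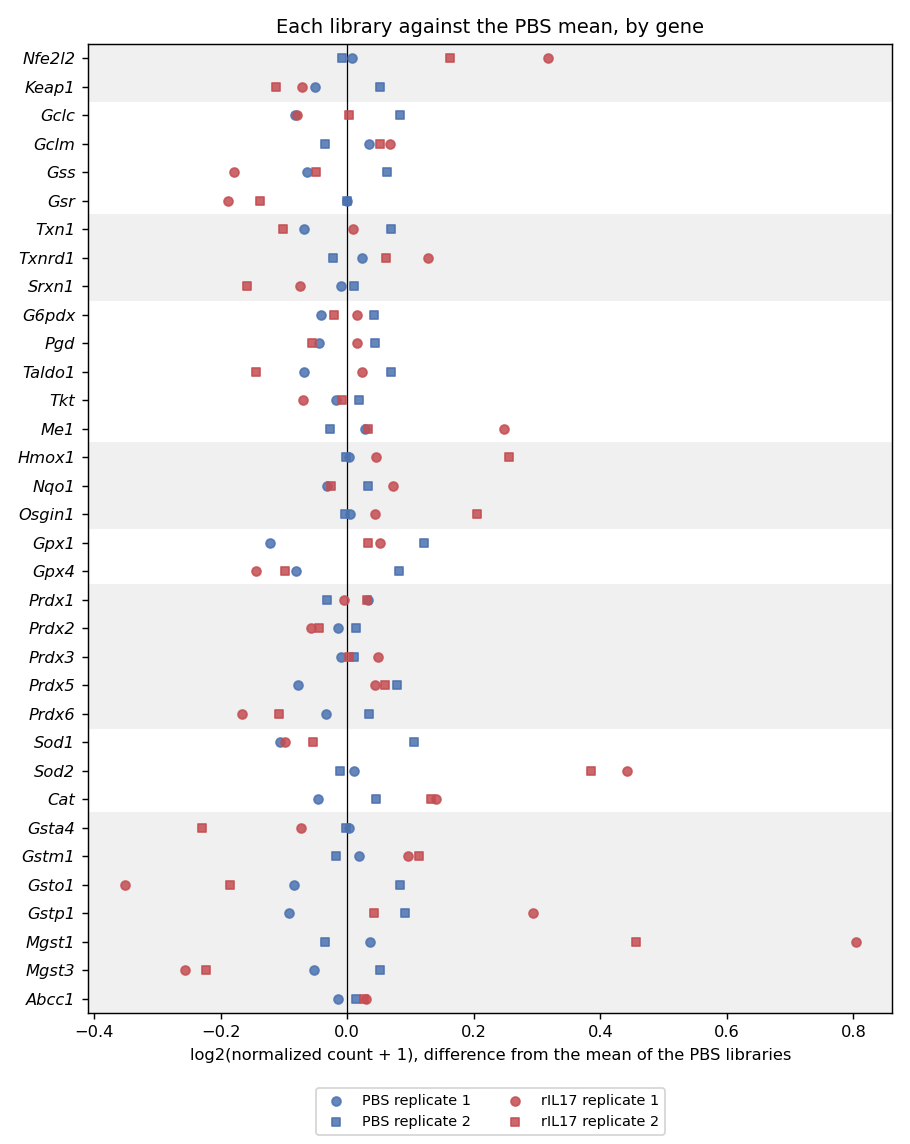
Difference of each library from the mean of the PBS libraries, in log2(normalized count + 1), for the 34 genes ordered by role (shaded and plain bands separate the roles; circles are replicate 1, squares replicate 2). Most rIL17 points lie near the PBS mean; Nfe2l2, Sod2 and Mgst1 stand to the right, and Gsto1 and Mgst3 to the left.

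The regulators came first. Nfe2l2 (ENSMUSG00000015839, mm10 chromosome 2, 75675513 to 75704641, minus strand) encodes NRF2. It had 2225 and 2199.6 normalized counts with PBS and 2756 and 2477 with rIL17. Both rIL17 libraries were higher than both PBS libraries, and the PBS libraries lay close together. The log2 fold change was 0.24 (SE 0.07, 95% confidence interval 0.04 to 0.44, limma adjusted p = 0.373) and ran from 0.16 to 0.32 when each library was left out. Keap1 (ENSMUSG00000003308, chromosome 9) had 1927 and 2069 with PBS and 1901 and 1846 with rIL17. Its rIL17 libraries lay below the PBS libraries, the nearest pair by a narrow margin, and the log2 fold change was -0.09 (95% interval -0.26 to 0.07). With a correction for GC content the value for Keap1 was 0.03. Keap1 shares 510 exon bases with Gm16754 on the opposite strand.

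The promoters were read for the motif of the antioxidant response element, TGACNNNGC, on both strands. A window from 250 bases before to 50 after the start of transcription was found for 29 of the 35 members in RefSeq's GRCm38.p6 sequences, some with several starts. The motif was in 10 of 38 windows of the members (26.3%), and in 12.4% of the 32851 windows of all genes. The members were listed as NRF2 targets and antioxidant genes, and the windows of all genes were not matched for GC content or expression. Whether the motif is enriched was not tested. These 10 members had log2 fold changes from -0.12 (Srxn1) to 0.63 (Mgst1). Of the 10, 6 were higher in rIL17, beside 17 of the 34 members and 52.8% of all genes tested. Under the GC correction, where 62.7% of all genes were above 0, Gclm and Prdx1 turned lower, and Srxn1, G6pdx and Pgd turned higher. The sequences below show the match of each of the 10 in capitals with up to 10 flanking bases, 5′ to 3′ on the strand of the gene, so that its free bases and surroundings can be compared. A match that reads GC first lies on the opposite strand.
Nfe2l2, chr2:75704885-75704913, minus strand: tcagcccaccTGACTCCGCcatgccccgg
Gclm, chr3:122245413-122245441, plus strand: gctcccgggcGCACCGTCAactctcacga
Txnrd1, chr10:82859104-82859132, plus strand: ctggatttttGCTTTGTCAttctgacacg
Srxn1, chr2:152105542-152105570, plus strand: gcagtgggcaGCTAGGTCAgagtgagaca
G6pdx, chrX:74428919-74428947, minus strand: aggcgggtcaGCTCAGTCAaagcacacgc
Pgd, chr4:149166061-149166089, minus strand: atttcagagcTGACATTGCactgatcgga
Me1, chr9:86695902-86695930, minus strand: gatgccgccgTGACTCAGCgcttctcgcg
Prdx1, chr4:116685456-116685484, plus strand: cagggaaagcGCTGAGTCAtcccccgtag
Sod1, chr16:90220696-90220724, plus strand: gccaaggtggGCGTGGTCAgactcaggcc
Mgst1, chr6:138140461-138140489, plus strand: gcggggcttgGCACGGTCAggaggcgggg

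The matches of Me1 and Prdx1 also hold TGACTCA, the site of AP-1, which overlaps this motif. Of the 10 stretches, 5 (Srxn1, G6pdx, Pgd, Me1 and Mgst1) touch an exon of their own gene in GENCODE M21. A match describes letters, not binding, and response elements outside the window were not searched.

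Glutathione synthesis and recycling had 4 members, none of which passed in limma. Gclc and Gclm encode the catalytic and modifier subunits of the rate-limiting enzyme, glutamate-cysteine ligase. Gclc had 638 and 716 normalized counts with PBS and 639 and 677 with rIL17, and Gclm had 762 and 726 against 780.1 and 771. The Gclc groups overlapped, whereas the Gclm values of rIL17 lay just above those of PBS. The log2 fold changes were -0.04 (95% interval -0.28 to 0.21) and 0.06 (-0.10 to 0.22), and the value for Gclm was -0.16 with the GC correction. Gss, glutathione synthetase, had 484 and 528 with PBS and 446 and 488 with rIL17, with overlapping groups. It shares 395 exon bases with Acss2 on the opposite strand. Gsr, glutathione reductase, which regenerates glutathione with NADPH, had 1889.7 and 1890.4 with PBS and 1658 and 1717 with rIL17. Both rIL17 libraries were lower, and the PBS libraries were nearly equal. The log2 fold change of Gsr was -0.16 (SE 0.04, 95% interval -0.29 to -0.04, limma adjusted p = 0.373), and -0.06 with the GC correction.

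The thioredoxin system likewise had 0 of 3 members passing. Txn1, thioredoxin itself, was the most abundant member per length, with a PBS mean of 8269 normalized counts per kb of exon. It had 8274 and 9107 normalized counts with PBS and 8737 and 8090.5 with rIL17, with overlapping groups. Txnrd1, the selenoprotein that reduces thioredoxin, had 4303 and 4165.5 with PBS and 4624 and 4419.8 with rIL17. Its rIL17 libraries were the higher pair, with a log2 fold change of 0.09 (95% interval -0.04 to 0.23) and 0.19 with the GC correction. Srxn1, sulfiredoxin, which repairs overoxidised peroxiredoxins, had 1326.5 and 1345 with PBS and 1269 and 1196.5 with rIL17. Here the rIL17 libraries were the lower pair (log2 fold change -0.12, 95% interval -0.27 to 0.04), and with the GC correction the value was 0.004. Under the deposited scaling these 2 known NRF2 targets lay on opposite sides of the PBS libraries, but both 95% intervals spanned 0.

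The NADPH suppliers had a median size of log2 fold change of 0.039 over 5 members, or 0.082 with the GC correction, and 0 of the 5 passed. G6pdx, glucose-6-phosphate dehydrogenase and the entry enzyme of the pentose phosphate pathway, had 2348 and 2489 normalized counts with PBS and 2443 and 2383 with rIL17. Pgd, the next dehydrogenase of the pathway, had 3519 and 3741 against 3667 and 3492. The groups of both genes overlapped, and the 95% intervals of their log2 fold changes, -0.15 to 0.14 and -0.18 to 0.14, bound the difference on either side. Taldo1 and Tkt, transaldolase and transketolase of the non-oxidative branch, also overlapped. Taldo1 had 2032 and 2236 with PBS and 2167 and 1929.6 with rIL17, and Tkt had 8974.5 and 9198 against 8652 and 9036. Me1, the cytosolic malic enzyme, had 597.5 and 575 with PBS and 696 and 599.7 with rIL17. It was the only supplier whose groups did not overlap, though the nearest libraries were almost level, and its log2 fold change was 0.14 (95% interval -0.14 to 0.42). With the GC correction the 5 members had log2 fold changes from 0.05 to 0.12, where 62.7% of genes were above 0, and 0 of the 5 passed. G6pdx shares 418 exon bases with Ikbkg on the opposite strand.

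Hmox1, Nqo1 and Osgin1 are inducible genes often used as readouts of NRF2, and 0 of the 3 passed in limma. Hmox1, haem oxygenase 1, had 181.5 and 181 normalized counts with PBS and 187 and 217 with rIL17. Nqo1, which reduces quinones, had 219.8 and 229.7 with PBS and 236 and 220.6 with rIL17. Osgin1, an oxidative stress-induced growth inhibitor, had 307 and 305 with PBS and 316 and 353 with rIL17. For Hmox1 and Osgin1 both rIL17 libraries were higher, replicate 2 the more so, and for Nqo1 the groups overlapped. The log2 fold changes were 0.15 (95% interval -0.17 to 0.47), 0.02 (-0.22 to 0.27) and 0.12 (-0.13 to 0.38). The GC correction gave 0.27, 0.05 and 0.24. Without rIL17 replicate 2 the values of Hmox1 and Osgin1 were both 0.04, and without rIL17 replicate 1 they were 0.26 and 0.20. Nqo1 changed sign with upper-quartile scaling (-0.026) and limma-voom (-0.006). Per length, Hmox1, Osgin1 and Nqo1 were among the less abundant members, with PBS means of 103.5, 114.5 and 145 normalized counts per kb.

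**Figure D2:**
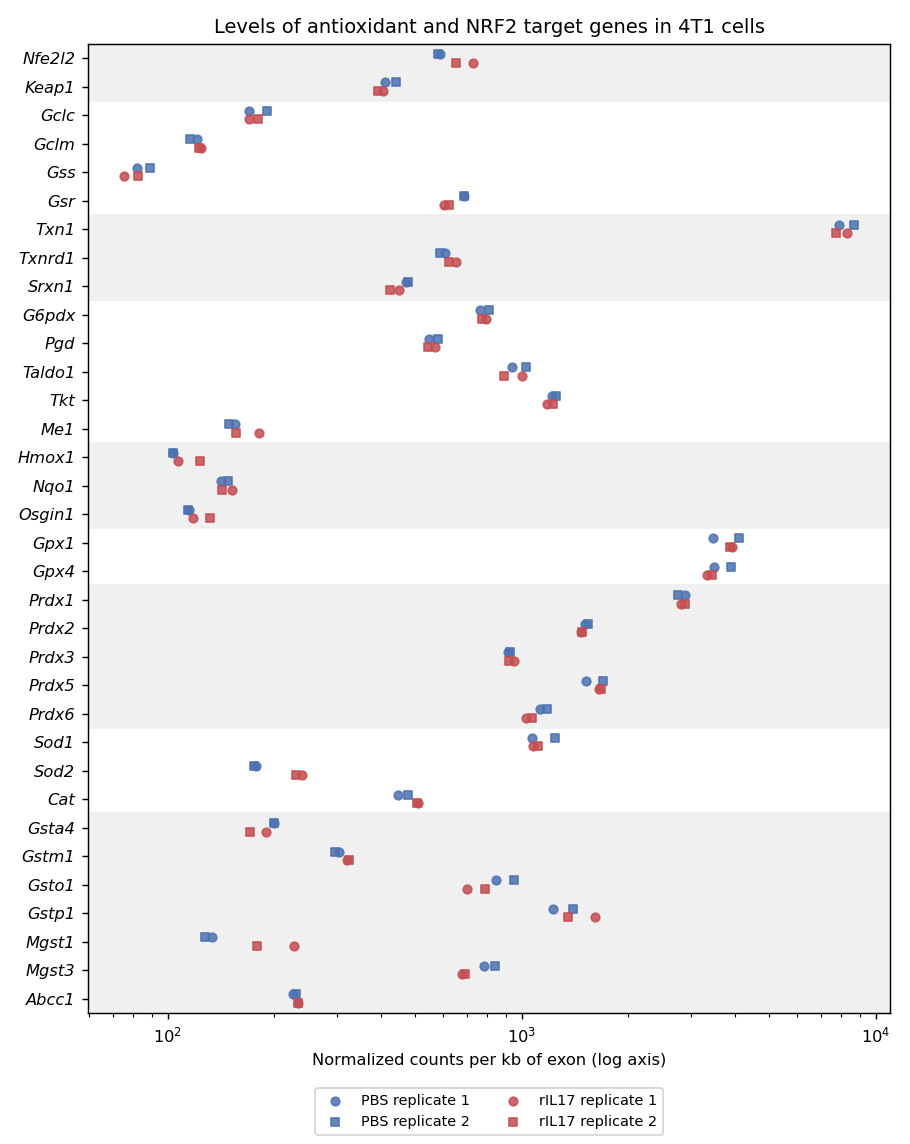
Normalized counts per kb of exon (log axis) in each library, by gene and role; blue is PBS, red is rIL17, circles are replicate 1 and squares replicate 2. Txn1, Gpx1, Gpx4 and Prdx1 stand at the top and Gss and Hmox1 at the bottom, while the groups of a gene lie close together on this scale.

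Levels per length ran from 85.5 normalized counts per kb for Gss to 8269 for Txn1 in PBS. Lengths are the union of a gene's annotated exons, which understates the level of genes with long minor transcripts such as Sod2. After Txn1 came Gpx1 at 3799.9 and Gpx4 at 3695, whose PBS libraries overlapped, so these neighbours did not differ beyond their spread. Prdx1 followed at 2822, Prdx5 at 1606 and Prdx2 at 1527.

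The glutathione peroxidases Gpx1 and Gpx4 are selenoproteins that reduce hydrogen peroxide and, for Gpx4, lipid hydroperoxides in membranes. Gpx1 had 5015 and 5937 normalized counts with PBS and 5656 and 5580.2 with rIL17. The PBS libraries lay further apart than the groups did, with the rIL17 libraries between them. Gpx4 had 6014 and 6727 with PBS and 5757 and 5940.2 with rIL17, so that its rIL17 libraries were the lower pair. The log2 fold changes were 0.04 (95% interval -0.24 to 0.32) and -0.12 (-0.33 to 0.09). Leaving out PBS replicate 2 gave -0.04 for Gpx4, and the GC correction gave -0.001. The value of Gpx1 was 0.16 with the GC correction (95% interval 0.02 to 0.31) and -0.007 with upper-quartile scaling.

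The peroxiredoxins, thiol peroxidases recharged by thioredoxin or glutathione, had 0 of 5 members passing, and their 95% intervals lay within -0.28 and 0.25 under the deposited scaling. After the GC correction Prdx1 was at -0.18 (95% interval -0.35 to -0.01) and Prdx5 at 0.18 (0.04 to 0.31), and neither passed. Prdx1, a cytosolic member, had 8775 and 8397 normalized counts with PBS and 8552 and 8772.5 with rIL17. Prdx2, also cytosolic, had 4611 and 4701.5 against 4473 and 4513. Prdx3, of mitochondria, had 1351 and 1369 with PBS and 1406 and 1363 with rIL17. The groups of Prdx1 and Prdx3 overlapped, and the rIL17 values of Prdx2 were both lower, with a log2 fold change of -0.05 that was 0.05 with the GC correction. Prdx1 and Prdx3 were at -0.037 and -0.024 with upper-quartile scaling. Prdx5, found in several organelles, had 3250.5 and 3621 with PBS and 3537.5 and 3575 with rIL17, with overlap. Prdx6, which uses glutathione and acts on phospholipid hydroperoxides, had 5413 and 5675 with PBS and 4935 and 5144 with rIL17. Its groups did not overlap (log2 fold change -0.14, SE 0.05, limma adjusted p = 0.399), and the value was -0.06 with the GC correction. Prdx2 shares 173 exon bases with Junb and 177 with Rnaseh2a, and Prdx5 shares 409 with Trmt112, each on the opposite strand.

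Of the dismutases and catalase, 0 of 3 passed. Sod2 (ENSMUSG00000006818, chromosome 17, 13006846 to 13040063, plus strand) encodes the manganese superoxide dismutase of mitochondria and is a known target of NF-kB. It had 1779.8 and 1753 normalized counts with PBS and 2399.6 and 2307 with rIL17. Both rIL17 libraries lay well above the PBS libraries, and the replicates of each group were close. The log2 fold change was 0.41 (SE 0.04, 95% interval 0.28 to 0.54), with the smallest p of the members (limma adjusted p = 0.369, and 0.0550 under the stricter filter). It ran from 0.38 to 0.44 with each library left out. With the GC correction it was 0.21 (SE 0.08, limma adjusted p = 0.244). Its transcript has 42.2% GC. PBS replicate 2 minus replicate 1 was -0.02 for Sod2 on the log2 scale, against a median of -0.26 for genes below 45% GC. Whether the GC correction suits this gene was not tested. Sod1, the copper-zinc dismutase of the cytosol, had 4254 and 4930.2 with PBS and 4278 and 4411 with rIL17, with overlapping groups and a log2 fold change of -0.08 (95% interval -0.33 to 0.18). Cat, catalase of peroxisomes, had 1168 and 1244 with PBS and 1328 and 1321 with rIL17. Both rIL17 libraries were higher for Cat, at a log2 fold change of 0.14 (95% interval -0.02 to 0.29), and 0.21 with the GC correction.

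The 220 bases printed next begin 250 bases before the RefSeq start of Sod2, the member with the smallest p, and end before the GENCODE exon; capitals mark GGGCGG, the GC box bound by Sp1, on either strand. This stretch lies inside the annotated gene, upstream of the RefSeq start and outside exons, and holds 4 such boxes. No window of Sod2 matched TGACNNNGC. GGGCGG was in 29 of the 38 windows of the members (76.3%) and in 35.7% of the windows of all genes.
Sod2, chr17:13007589-13007808, plus strand: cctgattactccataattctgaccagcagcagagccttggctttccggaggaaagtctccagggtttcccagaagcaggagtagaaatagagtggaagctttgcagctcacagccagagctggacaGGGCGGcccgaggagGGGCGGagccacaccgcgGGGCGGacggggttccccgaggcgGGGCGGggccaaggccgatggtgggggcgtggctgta

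Conjugation and export was the role with the widest spread, from -0.27 to 0.63 over 7 members. Mgst1 (ENSMUSG00000008540, chromosome 6, 138140316 to 138156755, plus strand) encodes a microsomal glutathione transferase with peroxidase activity. It had 269 and 256 normalized counts with PBS and 458 and 360.0 with rIL17. Both rIL17 libraries were well above PBS but apart from each other. The log2 fold change was 0.63 (SE 0.15, 95% interval 0.21 to 1.05, limma adjusted p = 0.373, and 0.117 under the stricter filter). It ran from 0.46 to 0.80 with each library left out. With the GC correction it was 0.61 (SE 0.12) and passed (limma adjusted p = 0.0477), the only member to do so, where 2.81% of genes passed.

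Mgst3, a related microsomal enzyme, had 856 and 919.8 normalized counts with PBS and 743 and 759 with rIL17. Its rIL17 libraries were the lower pair, opposite to Mgst1, with a log2 fold change of -0.24 (SE 0.06, 95% interval -0.42 to -0.06, limma adjusted p = 0.373). Gsto1, an omega-class transferase, had 1706 and 1917 with PBS and 1416 and 1589.6 with rIL17. Both rIL17 libraries were lower (log2 fold change -0.27, SE 0.10, 95% interval -0.55 to 0.01). With the GC correction the values of Mgst3 and Gsto1 were -0.13 and -0.15. Gsta4, which conjugates 4-hydroxynonenal from lipid peroxidation, had 253 and 253 with PBS and 240.3 and 216 with rIL17, again lower in both. Gstm1, a mu-class enzyme, had 448 and 437.5 with PBS and 473.5 and 479 with rIL17, higher in both.

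Gstp1, a pi-class enzyme, had 1901.5 and 2161 normalized counts with PBS and 2485 and 2088 with rIL17, with overlapping groups. Abcc1, the export pump MRP1 for glutathione conjugates, had 3416 and 3482 with PBS and 3520.4 and 3515 with rIL17. Its rIL17 values were the higher pair by a small margin, at a log2 fold change of 0.03 (95% interval -0.08 to 0.14), and was 0.14 with the GC correction and -0.021 with upper-quartile scaling. Gstp1 and Gstm1 have close paralogs, and Txn1, Prdx1 and Gpx4 have processed copies in the genome, so their counts are uncertain where reads could be placed at more than 1 site.

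**Figure D3:**
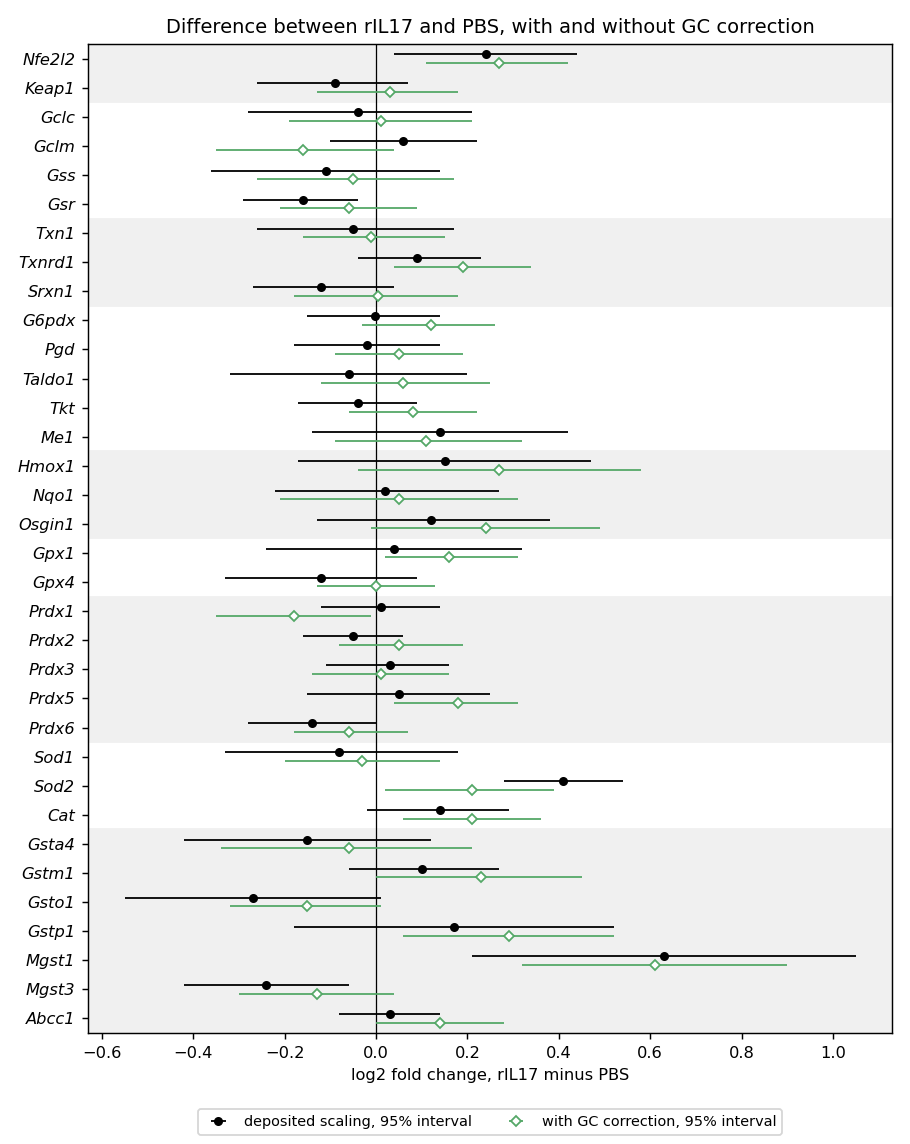
Log2 fold change (rIL17 minus PBS) with its 95% confidence interval from limma for the 34 genes, under the deposited scaling (black circles) and with the GC correction under the stricter filter (open green diamonds). The interval of Mgst1 lies above 0 in both; Sod2 moves from 0.41 to 0.21, and the GC correction takes Prdx1 from 0.01 to -0.18.

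The GC correction moved the members as a set, from 17 to 23 of 34 above 0, beside 62.7% of all genes. Their median became 0.053, beside 0.049 over the 12507 genes with a GC value. The sign was the same in each alternative run for 17 members. Among these Mgst1 ranged from 0.456 to 0.804, Sod2 from 0.207 to 0.442, Nfe2l2 from 0.163 to 0.317, Cat from 0.086 to 0.212, Gsto1 from -0.353 to -0.154, Mgst3 from -0.292 to -0.128 and Gsr from -0.213 to -0.061.

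Of 82 further genes of the pathway, listed by role, 76 had a row and 75 were tested. Of these 38 were higher and 37 lower in rIL17, and their median log2 fold change was 0.006. In limma 0 passed over all genes, while 19 had an unadjusted p below 0.05, beside the 12.8% of all genes. The list was compiled with earlier results of these data known. Under the stricter filter 3 of 66 passed, where 0.807% of all genes did, and these 3 were higher: Aldh3a1, Abcc3 and Xdh. Under that filter 19 of the 66 differed by at least 1.2-fold, beside 24.2% of all genes there.

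Aldh3a1, an aldehyde dehydrogenase that clears lipid-derived aldehydes, had 609 and 673 normalized counts with PBS and 1033 and 1107 with rIL17, and rose under the stricter filter (log2 fold change 0.74, SE 0.09, limma adjusted p = 0.0354). Abcc3, the export pump MRP3, had 1552 and 1717 with PBS and 2417 and 2391 with rIL17 and rose likewise (0.56, SE 0.07, limma adjusted p = 0.0406). Xdh, xanthine dehydrogenase, whose oxidase form produces superoxide and hydrogen peroxide, had 3113 and 3254 with PBS and 4271 and 4258 with rIL17 (log2 fold change 0.42, SE 0.06, limma adjusted p = 0.0445). The groups of these genes were far apart relative to their replicates. Their log2 fold changes were 0.67, 0.48 and 0.39 without PBS replicate 1, and 0.81, 0.63 and 0.45 without PBS replicate 2. With the GC correction they were 0.86, 0.68 and 0.52. Without rIL17 replicate 1 or 2, 0 of the further genes passed under this filter, so these 3 calls were lost.

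Slc7a11, the cystine carrier that feeds glutathione synthesis and a known NRF2 and ATF4 target, had 1348 and 1034 normalized counts with PBS and 2086 and 1954 with rIL17. Both rIL17 libraries were higher, and PBS replicate 2 was the lowest. The log2 fold change was 0.77 (SE 0.13 and limma adjusted p = 0.0644 under the stricter filter) and was 0.58 when PBS replicate 2 was left out. Slc7a11 passed after the GC correction, at a log2 fold change of 0.43 (limma adjusted p = 0.0149). Chac1, which degrades glutathione, was lower in both rIL17 libraries (2408 and 2519 against 2034 and 2113, log2 fold change -0.25). With the GC correction the value for Chac1 was -0.13.

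Among regulators, Sqstm1, encoding the KEAP1-binding autophagy receptor p62, had 15895.5 and 16906 normalized counts with PBS and 13732 and 13470.1 with rIL17. The rIL17 libraries were the lower pair (log2 fold change -0.27, SE 0.06, limma adjusted p = 0.114 under the stricter filter). Gsk3b, a kinase that marks NRF2 for degradation apart from KEAP1, was higher in both rIL17 libraries by 0.20 on the log2 scale (limma adjusted p = 0.335 under the same filter). Cul3, named after its values were seen, had 1936 and 926 with PBS and 2690.1 and 2266 with rIL17. Its low value in PBS replicate 2 carried much of the log2 fold change of 0.88, which was 0.35 without that library. The Cul3 transcript has 38.5% GC. With the GC correction the values of Cul3, Sqstm1 and Gsk3b were 0.29, -0.15 and 0.20.

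Other redox genes went both ways, and under the stricter filter none of those named here passed in limma. Txnip, the thioredoxin-binding protein, had 2411 and 2311 normalized counts with PBS and 2779 and 2781 with rIL17. Its log2 fold change was 0.24, and 0.30 with the GC correction (limma adjusted p = 0.0527). With a replicate block added it passed (limma adjusted p = 0.0361), but the replicate numbers do not establish a pairing. Glrx, glutaredoxin 1, had 1319.6 and 1296 against 1520.0 and 1691 (log2 fold change 0.29). Txnip and Glrx were both higher in each rIL17 library. Sod3, the extracellular dismutase, had 461 and 443.5 with PBS and 529 and 569.7 with rIL17, also higher in both. Gpx8, a peroxidase of the endoplasmic reticulum, had a log2 fold change of 0.14, and 0.03 without PBS replicate 2. Of the NADPH genes, Idh1, cytosolic isocitrate dehydrogenase, had 0.30, and Rpia, ribose-5-phosphate isomerase, -0.22.

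Fth1, the ferritin heavy chain that stores iron, had 34382 and 36294 normalized counts with PBS and 42121 and 42491 with rIL17, and Ftl1, the light chain, had 13054 and 13065 against 12312.5 and 12101. The heavy chain was higher and the light chain lower in both rIL17 libraries. Their log2 fold changes were 0.26 (limma adjusted p = 0.117 under the stricter filter, and 0.0218 with the GC correction, where it passed) and -0.10 (adjusted p = 0.415), the latter 0.02 with the GC correction. Both genes have many processed copies in the genome. Cyba, the p22phox subunit of NADPH oxidases, had 1547 and 1757 with PBS and 1340.0 and 1306 with rIL17, lower in both (log2 fold change -0.32, adjusted p = 0.163 under the stricter filter). With the GC correction the value for Cyba was -0.20.

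**Figure D4:**
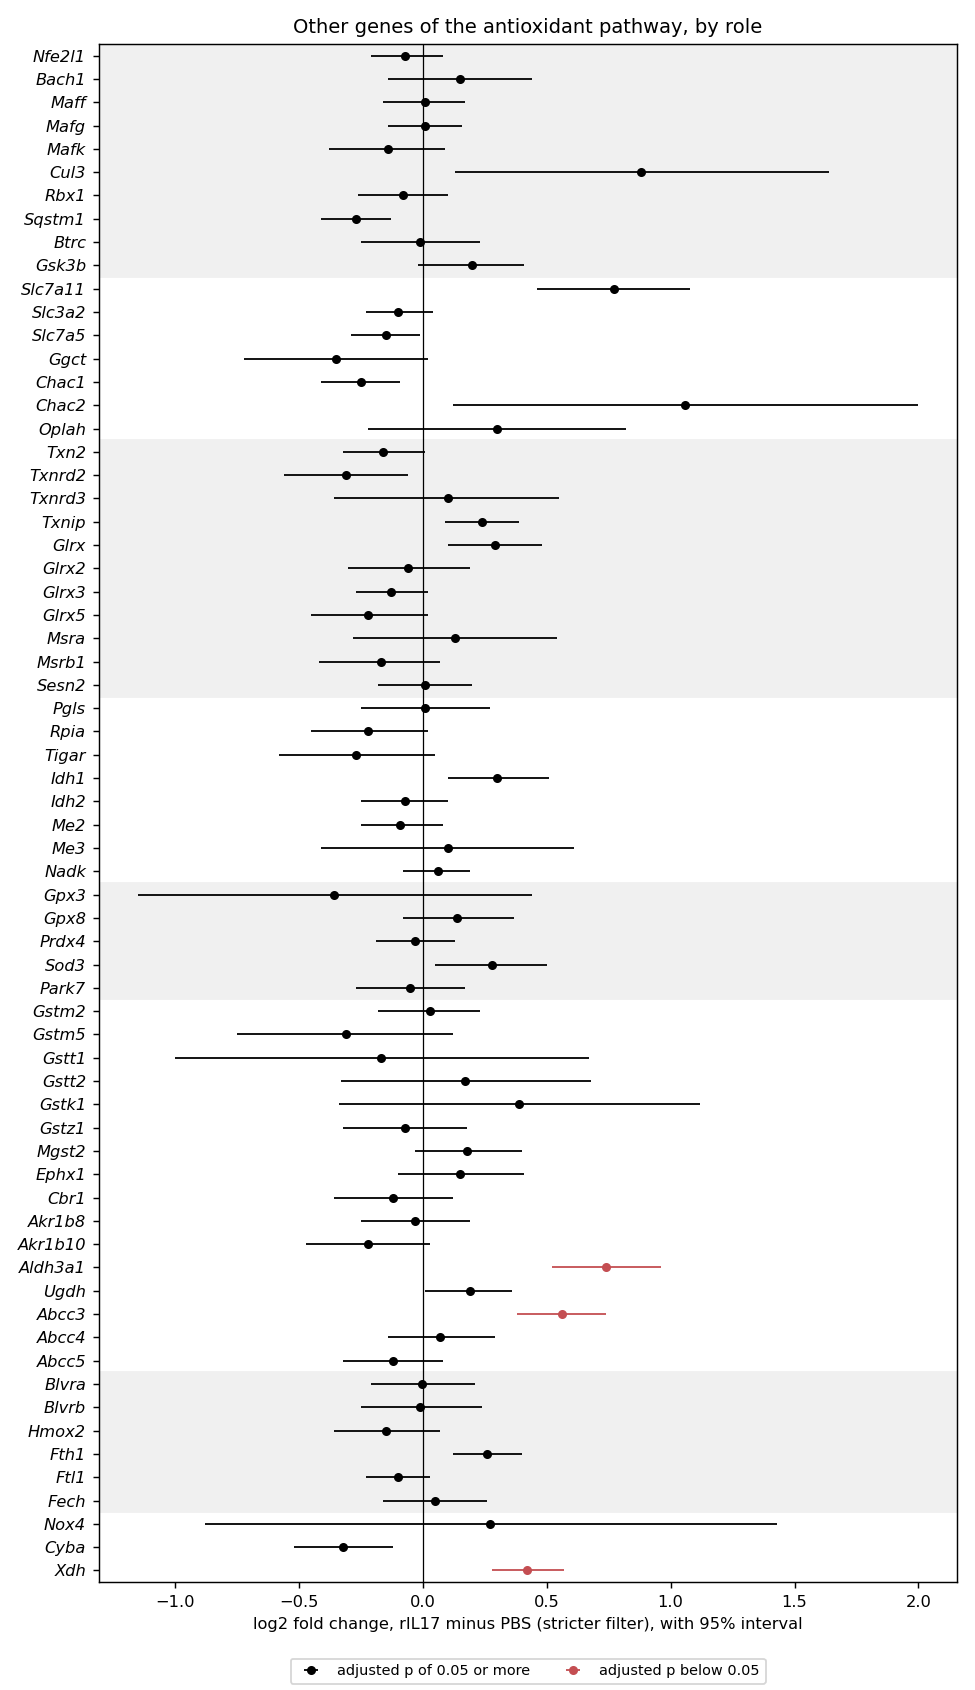
Log2 fold change (rIL17 minus PBS) with its 95% confidence interval from limma under the stricter filter for the 66 further genes of the pathway, by role (shaded and plain bands). Aldh3a1, Abcc3 and Xdh, in red, passed at an adjusted p below 0.05; Cul3 and Chac2 have the widest intervals among the genes that stand far to the right.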

How the data were processed

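The deposited values are a signal per gene: per the values, read counts that the authors seem to have divided by 1 scaling factor per library, since 100.0% are within 0.001 of a whole multiple of that library's step. CASAVA, HISAT2 2.0.5 and featureCounts 1.5.0-p3 with build mm10 are named in the submitters' processing notes. The library kit was directional, per the labels' protocols; the strand setting and annotation release used in counting are not known here.

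From these values, log2(normalized count + 1) was tested with limma 3.58.1 in R 4.3.3 (variance trend, Benjamini-Hochberg adjustment, adjusted p below 0.05) on 20677 genes with a mean of at least 1 in 1 group, with all 4 libraries in the fit. The script was tested on simulated data. Gene positions, exon lengths and GC content come from GENCODE M21, and promoters from RefSeq. The GC correction subtracts a loess curve (span 0.3) of log2 values on GC content in each library. Alternatives covered scaling, filters, pseudocount, voom, a replicate block and left-out libraries. Members and lists were chosen with earlier results of these data known. Every member is named; of the other pathway genes, the 2 with the smallest p in each role are named, and any that passed over all genes under the first or the stricter filter.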

Additional observations from a re-analysis of the deposited data

How the results depend on the processing

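Each group has 2 libraries, and no alternative at another depth was run. The alternatives that count whole reads (edgeR and DESeq2) were not run, because a check of units did not accept the values as scaled reads. That check turned on steps close to 1, although 100.0% of values were within 0.001 of a whole multiple of their library's step. What these models would give was not tested. The stricter filter combined with a left-out library was chosen after seeing the data. The cause of each difference below was not tested.

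Against 0 genes called, the GC correction called 352, the GC correction with the replicate block 588, the stricter filter 101, and limma-voom, upper-quartile scaling and an adjusted p below 0.1 called 1 each. The stricter filter called 2773 genes without PBS replicate 1, 692 without PBS replicate 2 and 1 without either rIL17 library. Members called were 1 with the GC correction and 1 with the block added, and 7, 2, 0 and 0 under the stricter filter without each library. The other pathway genes called were 5 with the GC correction, 6 with the block added, 3 under the stricter filter, and 19, 7, 0 and 0 without each library. The replicate numbers do not establish a pairing (correlation of the replicate differences 0.157 over 12515 genes), and the replicate block under the first filter called 0 genes, 0 members and 0 other pathway genes.

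Members whose groups do not overlap numbered 20 of 34 in the first fit, beside 45.4% of all genes tested. They numbered 17 with upper-quartile scaling and 22 with the GC correction. With a library left out they numbered 23 to 31, where fewer values can overlap. No share over all genes is given for upper-quartile scaling, the GC correction or the fits with a library left out. Their counts thus have no background and are not read as a result about the members. Members higher in rIL17 numbered 17, 12 with upper-quartile scaling, 13 with limma-voom, 23 with the GC correction, and 14 to 22 with a library left out. Of all genes 52.8% were higher in the first fit and 62.7% with the GC correction. No such share is given for the other fits, so their counts are not read as a result about the members. The median log2 fold change of the members, 0.005, was -0.045 with upper-quartile scaling and -0.051 to 0.033 with a library left out; that of the other pathway genes was -0.061 to 0.025.

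The GC correction put the median log2 fold change of all genes at 0.049, with 62.7% of genes above 0. With the GC correction, with and without the replicate block, the sign turned for Keap1 (0.029), Gclc (0.014), Gclm (-0.157), Srxn1 (0.004), G6pdx (0.117), Pgd (0.051), Taldo1 (0.061), Tkt (0.082), Prdx1 (-0.183), Prdx2 (0.055) and Ftl1 (0.023). With limma-voom it turned for Nqo1 (-0.006), Prdx1 (-0.017), Prdx3 (-0.004) and Abcc1 (-0.001), and with upper-quartile scaling for Nqo1 (-0.026), Gpx1 (-0.007), Prdx1 (-0.037), Prdx3 (-0.024) and Abcc1 (-0.021). With each library left out, values crossed 0 for Gclc (-0.122 to 0.045), Txn1 (-0.115 to 0.023), G6pdx (-0.045 to 0.039), Pgd (-0.064 to 0.024), Taldo1 (-0.144 to 0.024), Nqo1 (-0.026 to 0.072), Gpx1 (-0.08 to 0.164), Prdx1 (-0.019 to 0.045), Prdx5 (-0.026 to 0.13) and Sod1 (-0.183 to 0.03).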
